A study of Mus musculus with 8 samples.

Results

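The genes of heme synthesis were followed in RNA of crude mitochondria from the hearts of Tefm knockout and control mice. Tefm encodes the elongation factor of mitochondrial transcription. The genes were Alas1, Alas2, Alad, Uros, Urod, Cpox, Ppox, Fech and Abcb10, 9 of the 49584 features counted, chosen by name as members of the pathway and matched to the gene names of the deposited table. The knockout group held 4 mice labelled L/L, cre and Tefm -/-, in which a loxP-flanked Tefm exon was excised by cre driven by the muscle creatine kinase promoter, and the control group held 4 mice labelled L/L and Tefm +/+. That promoter is active in cardiomyocytes and skeletal muscle and does not target the other cells of the heart. All 8 animals are taken to carry the loxP-flanked allele, from the L/L of the titles, although the genotype field calls the controls +/+. The sources used here give no strain, age or sex.

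Heme is made partly inside mitochondria and partly in the cytosol. The pathway starts in the matrix, where the 2 synthases ALAS1 (all tissues) and ALAS2 (red cell precursors) join glycine and succinyl-CoA. It continues in the cytosol with ALAD, UROS and UROD, and returns to mitochondria with CPOX, PPOX and FECH, which inserts iron into protoporphyrin. ABCB10 is a transporter of the inner mitochondrial membrane that is needed for heme synthesis in red cell precursors. Not every step is covered by these 9 genes. In the heart the product serves the cytochromes of the respiratory chain, myoglobin and catalase.

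The libraries held 21108165 to 25393933 counts in knockouts and 26268804 to 27403415 in controls. RNA of mitochondrial DNA made up 38.7% to 59.3% of the counts in knockouts, with knockout replicate 1 the highest, and 72.3% to 74.0% in controls. Nuclear genes gave 10331611 to 13204546 counts in knockouts and 6825329 to 7596951 in controls. Levels are therefore given as CPM, the count of a gene relative to the size of its library, with that size set by the trimmed mean over most genes (TMM), so that a change is one relative to other nuclear RNA. Tefm itself had 6.35, 6.74, 6.64 and 7.72 CPM in knockouts against 5.80, 6.13, 5.87 and 7.18 CPM in controls, and the deletion of the exon was not visible in this count, which covers the gene as a whole (log2 fold change 0.14, SE 0.11, adjusted p = 0.324 by edgeR's quasi-likelihood test). The 8 cardiomyocyte markers examined were detected in all libraries, at a summed 36939 to 47217 CPM in knockouts and 59188 to 63020 CPM in controls, and 7 of the 8 fell on the TMM scale, while 5 of the 8 were above 0 with library totals (Myh6 0.22, Tnnt2 0.72, Myl2 0.38, Myl3 0.38 and Ttn 0.55). The call of Myl2 was lost without knockout replicate 3 or 4 and in DESeq2, and that of Ttn without knockout replicate 4 or any 1 control. Of 6 markers each, 3 rose for fibroblasts, 1 rose and 2 fell for endothelial cells and 2 fell for macrophages, and the 4 that fell were above 0 with library totals (C1qa 0.40, C1qb 0.44, Kdr 0.60 and Tie1 0.66). The call of the fibroblast gene Tcf21 was lost without knockout replicate 2, 3 or 4 or control replicate 1 or 3. It was also lost in DESeq2 and with replicate number in the model. The rise of the endothelial gene Vwf went from 0.74 to 0.40 without knockout replicate 1. Markers of liver cells summed to at most 0.404 CPM. Their part in the results was not tested. In this bulk RNA, fewer cells of a type and less RNA per cell cannot be told apart. A change in what co-purifies with mitochondria and a change in the heart also cannot be told apart.

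Of the 9 heme synthesis genes 4 fell in the knockout libraries on the TMM scale, none rose and 5 did not pass the test, while all 9 values turned positive with library totals (edgeR, Benjamini-Hochberg adjusted p under 0.05 over 17891 genes). Alas1 fell by 22.0%, Abcb10 fell to 0.750 of its control level, Uros fell by 32.5% and Alad fell by 40.1%. Over all genes tested 23.9% fell and 26.1% rose, 50.0% in all, so that changes in both directions were common. Without knockout replicate 1, 7 of the 9 genes fell. The median log2 fold change was -0.18 over the 9 genes and -0.01 over all genes tested, and all 9 genes passed the filter on low counts. Together the 9 genes took 0.0461%, 0.0374%, 0.0390% and 0.0372% of the nuclear counts in knockouts 1 to 4, and 0.0482%, 0.0470%, 0.0503% and 0.0479% in controls 1 to 4. When library totals alone set the scale, the median of all genes moved to 0.97 and that of the 9 genes to 0.76. On that scale 8 of the 9 genes were called higher and none lower, against 78.6% and 2.68% of all genes tested.

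**Figure D1:**
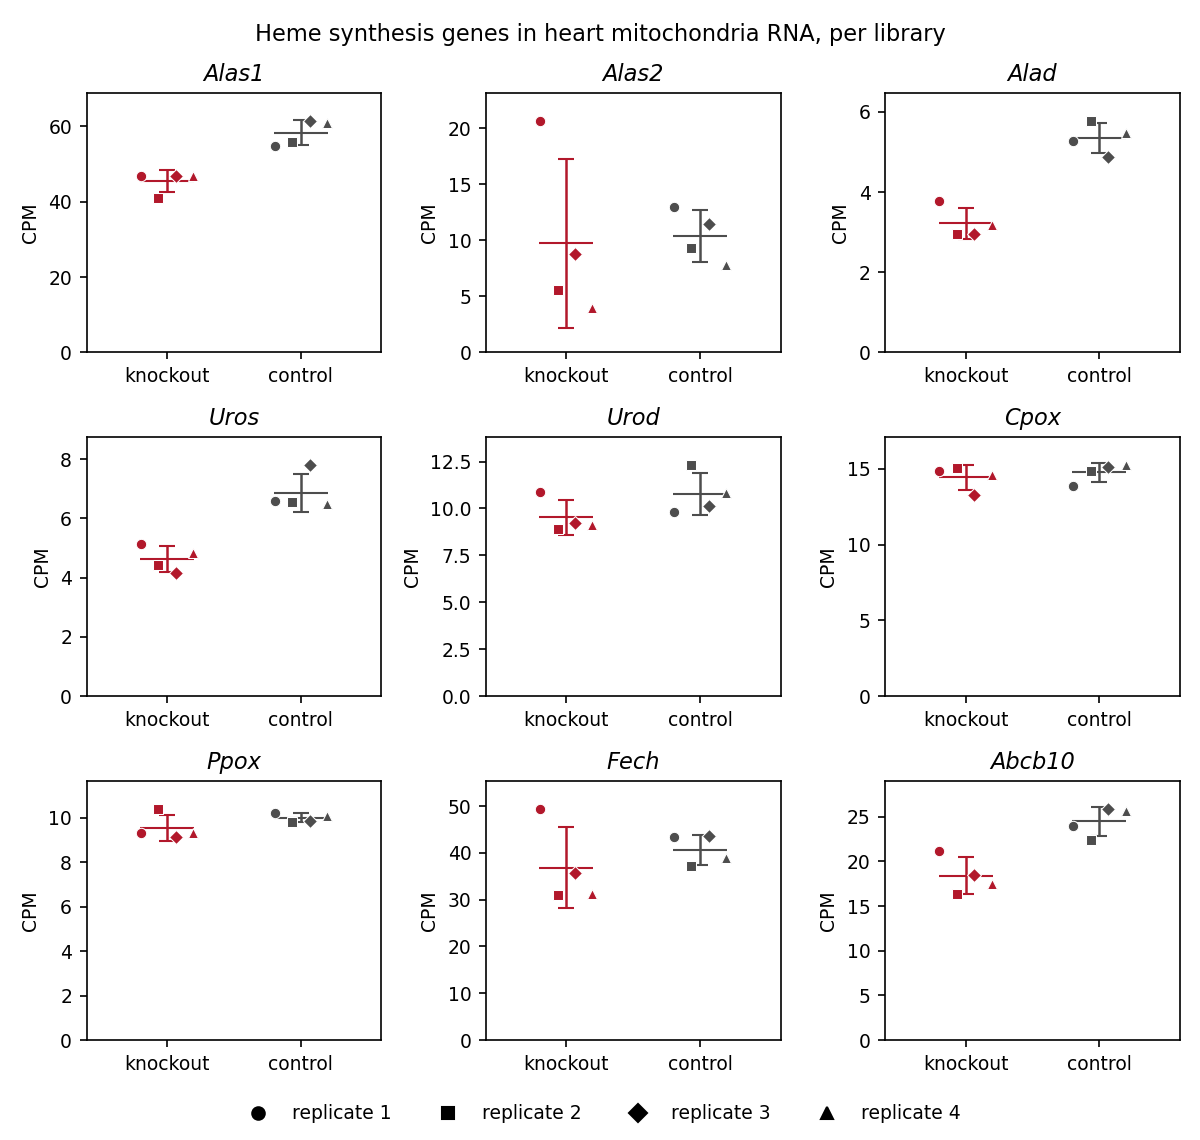
Level of each heme synthesis gene (CPM on the TMM scale, axes from 0) in the 4 knockout libraries (red, left) and the 4 control libraries (grey, right). Points are libraries, with 1 symbol per replicate number, the horizontal line is the mean and the bars are 1 SD. The groups do not overlap for Alas1, Alad, Uros and Abcb10. Knockout replicate 1 is the highest of all 8 libraries for Alas2 (20.6 CPM) and Fech (49.4 CPM). It is also the highest of the knockouts for Alad, Uros, Urod and Abcb10, and level with replicates 3 and 4 for Alas1. With library totals in place of TMM all 9 differences turn positive.

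Alas1 encodes the synthase of the first and rate-limiting step outside red cell precursors (chromosome 9, 106233455 to 106248654 in GRCm38, minus strand). It had 46.9, 41.0, 46.8 and 46.9 CPM in knockouts 1 to 4, against 54.9, 55.9, 61.3 and 60.8 CPM in controls 1 to 4. All knockout libraries lay below all controls, which was so for 4 of the 9 genes and for 21.5% of all genes tested (45.4% did not overlap in either direction). The log2 fold change was -0.36 (SE 0.07, adjusted p = 0.00108 by edgeR). Per base of transcript, Alas1 was the most abundant of the 9 genes in both groups, at 13.4 ± 0.870 CPM per kb in knockouts and 17.1 ± 0.977 CPM per kb in controls (SD, n = 4 each).

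Alad, for the cytosolic enzyme that joins 2 molecules of aminolevulinic acid (chromosome 4, 62509169 to 62519918, minus strand), had the largest fall of the 9. Its levels were 3.79, 2.95, 2.94 and 3.18 CPM in knockouts against 5.27, 5.76, 4.87 and 5.48 CPM in controls. The groups were well apart, with a log2 fold change of -0.74 (SE 0.13, adjusted p = 0.000254 by edgeR). The raw counts behind these values were 99 to 102 in the knockout libraries and 88 to 110 in the control libraries. These raw counts were nearly equal between the groups, and the fall is one relative to the nuclear RNA of each library (0.23 with library totals, adjusted p = 0.281 by edgeR).

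Uros, for the cytosolic enzyme that closes the tetrapyrrole ring (chromosome 7, 133686243 to 133710072, minus strand), had 5.12, 4.43, 4.15 and 4.82 CPM in knockouts against 6.59, 6.55, 7.80 and 6.48 CPM in controls. All knockouts were below all controls, and the log2 fold change was -0.57 (SE 0.11, adjusted p = 0.000850 by edgeR). Abcb10 (chromosome 8, 123952459 to 123983122, minus strand) had 21.2, 16.4, 18.5 and 17.5 CPM in knockouts, and 24.0, 22.4, 25.9 and 25.6 CPM in controls. Its groups did not overlap either, with a log2 fold change of -0.41 (SE 0.09, adjusted p = 0.00149 by edgeR). The calls of Alas1, Alad, Uros and Abcb10 held without any 1 of the 8 libraries, over which the values ran from -0.83 to -0.31.

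**Figure D2:**
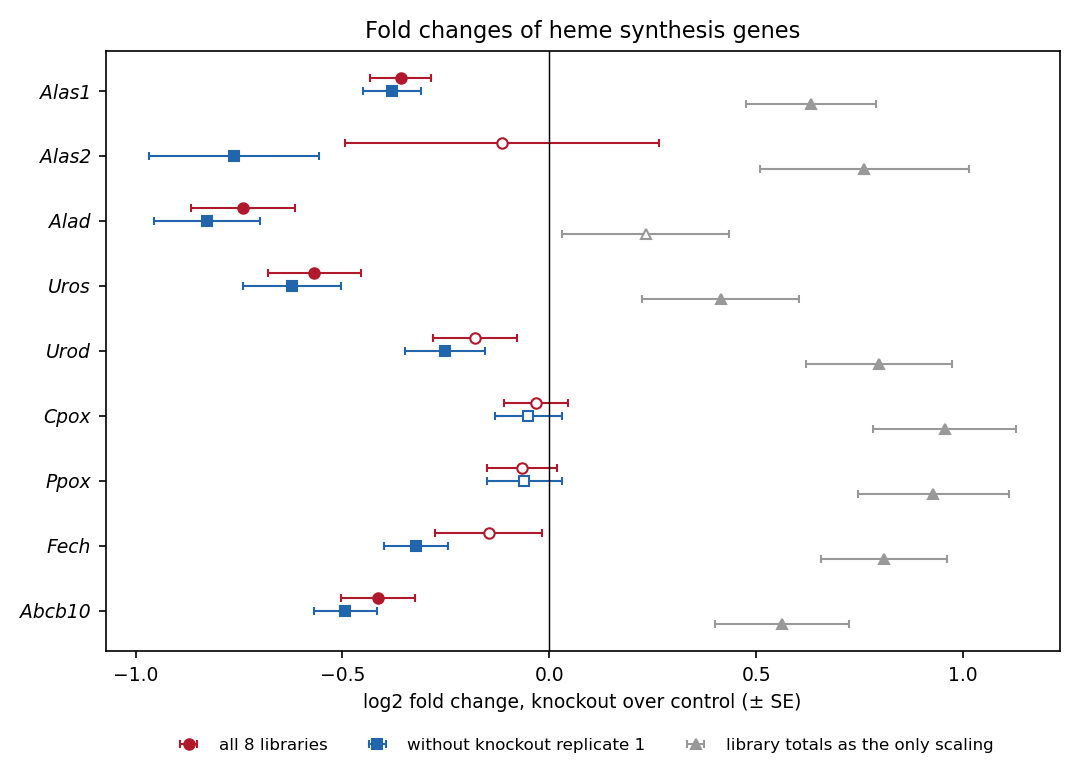
Log2 fold change of each heme synthesis gene, knockout over control, with bars of 1 SE, for all 8 libraries (red circles), without knockout replicate 1 (blue squares) and with library totals alone as the scale (grey triangles). Filled symbols have an adjusted p under 0.05. Without knockout replicate 1 the values of Alas2 (-0.76), Urod (-0.25) and Fech (-0.32) also pass, and with library totals every value is above 0.

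The promoters of these genes were searched for short motifs in the 250 bases before the start site, for the 8 genes with a RefSeq promoter (GRCm38.p6). The core of the binding motif of NRF1, a factor known to drive Alas1 and many genes of mitochondrial proteins, was spelled GCGCA, any base, GCGC, and sought on both strands. It was found in 3 of the 8 genes and in 3.73% of 32817 promoters, whose median GC content was 52.4%. The 3 genes were Alas1, with 2 matches, Uros and Abcb10, all among the 4 that fell, with GC contents of 74.4%, 59.6% and 61.6%. Alad, which also fell, had no match at a GC content of 70.4%. The windows of Alas2 (51.2%), Urod (50.8%), Cpox (58.8%) and Ppox (53.6%) had no match either and held less GC than those of these 3 genes. The part of GC content in the matches was not tested. The matches are shown with 10 bases on each side, on the strand of the gene, with the match in capitals.
Alas1, chr9:106247935-106247964: gcttcggcgcGCGCGTGCGCgcggcaggcc
Alas1, chr9:106247906-106247935: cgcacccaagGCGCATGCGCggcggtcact
Uros, chr7:133709323-133709352: cggtcacactGCGCCTGCGCgagtcccgcc
Abcb10, chr8:123983135-123983164: cctgagtgccGCGCATGCGCactccgccag

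The matches of Alas1 began 224 and 195 bases before the start site, that of Uros 47 and that of Abcb10 32 bases before it. The start site is that of the RefSeq promoter used for each gene. For Alas1 and Uros it lies inside the gene positions given above, and so do their matches. Annotated exons cover 235 of the 250 bases searched for Alas1 and 196 for Uros (GENCODE M21). The Nrf1 gene itself had a log2 fold change of 0.02 (SE 0.11, adjusted p = 0.908 by edgeR). The whole window of Abcb10, with the same match in capitals, is given since it holds no annotated exon.
Abcb10, chr8:123983123-123983372, minus strand: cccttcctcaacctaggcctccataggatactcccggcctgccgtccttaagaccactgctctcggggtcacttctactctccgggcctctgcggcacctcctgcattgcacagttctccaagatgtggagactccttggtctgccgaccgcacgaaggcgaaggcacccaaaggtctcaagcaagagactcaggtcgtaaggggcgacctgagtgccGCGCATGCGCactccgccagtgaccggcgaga

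Urod, Cpox and Ppox, for the steps between uroporphyrinogen and protoporphyrin, did not pass the test in either direction. Urod, the cytosolic decarboxylase, had 10.9, 8.89, 9.20 and 9.14 CPM in knockouts against 9.80, 12.3, 10.1 and 10.8 CPM in controls (log2 fold change -0.18, 95% interval -0.40 to 0.04, adjusted p = 0.162 by edgeR). Knockout replicate 1 lay among the controls and the other 3 knockouts below all of them, and without that library Urod passed (-0.25, adjusted p = 0.0387 by edgeR). Cpox, the oxidase of the intermembrane space, had 14.8, 15.0, 13.2 and 14.6 CPM in knockouts and 13.9, 14.8, 15.1 and 15.3 CPM in controls. The groups overlapped, and the 95% interval of its log2 fold change ran from -0.20 to 0.13 around -0.03. Ppox, the oxidase of the inner membrane, had 9.29, 10.4, 9.15 and 9.30 CPM in knockouts and 10.2, 9.80, 9.85 and 10.1 CPM in controls. Its log2 fold change was -0.07, with an interval of -0.25 to 0.12. For both Cpox and Ppox the interval leaves out a fall as large as that of Alas1 (-0.36). Of the exon bases of Ppox 17.5% are shared with B4galt3 on the opposite strand (log2 fold change -0.05, adjusted p = 0.826 by edgeR), and reads of the 2 genes cannot be told apart there without strand.

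Fech, for the ferrochelatase that completes heme (chromosome 18, 64452914 to 64490251, minus strand), had 49.4, 31.0, 35.7 and 31.3 CPM in knockouts against 43.3, 37.1, 43.5 and 38.9 CPM in controls. Knockout replicate 1 was the highest of all 8 libraries, and the other 3 knockouts were below every control. Over the 8 libraries Fech did not pass (log2 fold change -0.15, 95% interval -0.42 to 0.13, adjusted p = 0.371 by edgeR). Without knockout replicate 1 it fell (-0.32, SE 0.08, adjusted p = 0.00186 by edgeR).

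Alas2, the synthase of red cell precursors (chromosome X, 150547375 to 150570638, plus strand), varied most between libraries. It had 20.6, 5.59, 8.80 and 3.97 CPM in knockouts against 13.0, 9.33, 11.5 and 7.82 CPM in controls, a coefficient of variation of 77.3% in knockouts and 22.0% in controls. Knockout replicate 1 was again the highest of all libraries and knockout replicate 4 the lowest. The log2 fold change was -0.11 with a 95% interval of -0.93 to 0.70 (adjusted p = 0.825 by edgeR), so that neither a fall nor a rise was detectable at this spread. Without knockout replicate 1 Alas2 fell (-0.76, SE 0.21, adjusted p = 0.00471 by edgeR), although knockout replicate 3 still lay above control replicate 4. Of its exon bases 12.9% are shared with Apex2 on the opposite strand, which fell (-0.93, adjusted p = 0.000642 by edgeR).

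The upstream region of Alas2 held none of the NRF1 matches, and 1 match to AGATAA, the motif of GATA factors (here on the opposite strand, 86 bases before the start site), which 9.99% of promoters hold. GATA1 is known to drive Alas2 in red cell precursors. The stretch before the first annotated exon is shown with that match in capitals, together with a match to TATAAA on the opposite strand (12.4% of promoters), to set it beside the window of Abcb10. Other motifs searched were CCACCC, in Alas2 alone (28.1% of promoters), the E-box CACGTG, in Alad, Uros and Urod (6.02%), and CCAAT, in Alad, Urod and Ppox (33.8%). None of the 8 windows held the antioxidant response element TGAC, any 3 bases, GC (10.2%), the C/EBP-ATF element TGATG, any base, AA (3.45%) or the FoxO motif GTAAACA (3.16%).
Alas2, chrX:150547167-150547374, plus strand: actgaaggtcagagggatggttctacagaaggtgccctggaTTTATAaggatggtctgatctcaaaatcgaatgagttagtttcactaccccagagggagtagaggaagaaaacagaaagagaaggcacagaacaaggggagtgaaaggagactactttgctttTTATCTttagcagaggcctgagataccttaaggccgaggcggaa

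The libraries high in Alas2 and Fech were also high in globin RNA, which marks red blood cells and their precursors. The 4 adult globin genes summed to 885, 246, 320 and 168 CPM in knockouts 1 to 4 and to 444, 172, 421 and 311 CPM in controls 1 to 4. Knockout replicate 1 was the highest for globins, Alas2 and Fech, and knockout replicate 4 the lowest for globins and Alas2. Among the knockouts, replicate 1 was also the highest for Alad (3.79 CPM), Uros (5.12 CPM), Urod (10.9 CPM) and Abcb10 (21.2 CPM). Knockout replicate 1 stood apart in other RNA too, in both directions. It was the highest of the 8 libraries for the cardiomyocyte genes Tnnt2 (1200 CPM) and Myl2 (685 CPM). For the other cardiomyocyte markers, Myh6, Tnni3, Actc1, Ryr2, Myl3 and Ttn, it lay below every control. Among endothelial genes it was the highest for Vwf (47.0 CPM), Pecam1 (88.5 CPM) and Egfl7 (66.5 CPM). It was the lowest of the 8 for the endothelial genes Kdr (76.9 CPM) and Tie1 (30.2 CPM). So it was for all 6 macrophage markers, such as C1qa (9.94 CPM) and Mrc1 (10.3 CPM), and for the fibroblast gene Lum (9.75 CPM). For the fibroblast genes Col1a1 (9.52 CPM), Col1a2 (20.6 CPM) and Pdgfra it lay within the range of the controls and below the other knockouts. For Dcn and Tcf21 knockout replicate 1 lay above every control. The chi-square of its counts against the other knockouts was 91.2 to 139.9 per degree of freedom, against 8.55 to 15.7 among those 3. Alas1 did not share this order, since knockout replicate 1, at 46.9 CPM, was level with knockout replicates 3 and 4. Of 12 listed red cell markers 11 were in the counts and 6 had enough counts to test, of which 1 rose and 0 fell, and the 4 globin genes and Slc4a1 did not pass (edgeR). The whole list summed to 186 to 911 CPM in knockouts and 184 to 458 CPM in controls. The defining precursor genes were near 0, with 3 counts over the 4 knockout libraries and 5 over the 4 controls for Gata1, and the same for Klf1.

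**Figure D3:**
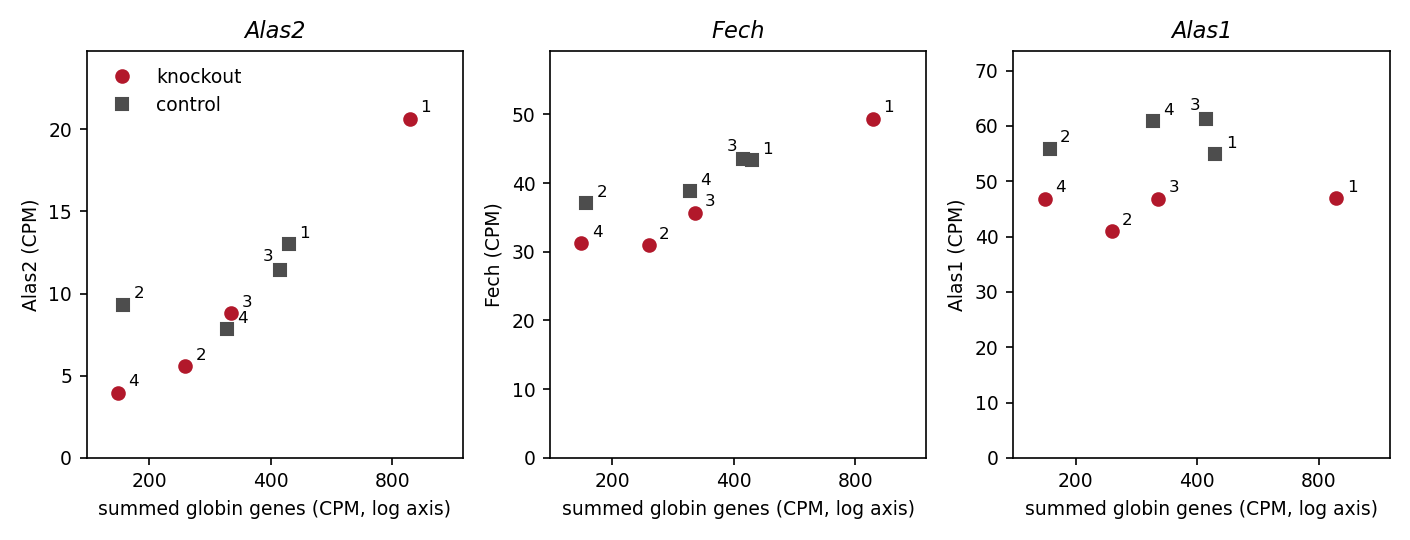
Level of Alas2, Fech and Alas1 (CPM, axes from 0) against the summed level of the 4 globin genes (CPM, log axis) in the 4 knockout libraries (red circles) and 4 control libraries (grey squares), numbered by replicate. Knockout replicate 1, with 885 CPM of globin RNA, has the highest Alas2 (20.6 CPM) and Fech (49.4 CPM) of the 8 libraries, while its Alas1 (46.9 CPM) is among the other knockouts.

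Ratios within a library do not depend on the scaling. The log2 ratio of Alas2 to the summed globins was -5.36 ± 0.124 in knockouts and -4.95 ± 0.505 in controls (SD, n = 4 each), with control replicate 2 at -4.20 and every other library between -5.46 and -5.09. The difference of -0.41 did not pass (two-sided exact permutation test over 70 relabelings, p = 0.0857; 0.257 after Benjamini-Hochberg adjustment over 3 ratios), and without control replicate 2 it was -0.16. The log2 ratio of the first enzyme to the last, Alas1 to Fech, was 0.33 ± 0.281 in knockouts and 0.52 ± 0.133 in controls, a difference of -0.19 (exact permutation p = 0.286, adjusted p = 0.286; n = 4 each) that was -0.059 without knockout replicate 1. That of Alas1 to the cytosolic Urod was 2.25 ± 0.121 in knockouts and 2.44 ± 0.179 in controls, a difference of -0.18 (exact permutation p = 0.171, adjusted p = 0.257; n = 4 each). The smallest p this design allows is 0.0286, so that 1 ratio alone could not pass after adjustment over the 3. When the log2 summed globin level of each library was added to the model, a choice made after these levels were seen, Fech passed at -0.18 (SE 0.07, adjusted p = 0.0475 by edgeR). Alas2 then stood at -0.38 (SE 0.17, adjusted p = 0.0760 by edgeR), and Alas1 at -0.36. The part of red cell RNA, or of the other ways in which knockout replicate 1 stood apart, in the levels of Fech and Alas2 was not tested beyond these values.

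Per base of transcript the 9 genes kept a similar order in both groups. After Alas1 came Urod (6.40 ± 0.619 CPM per kb in knockouts and 7.23 ± 0.750 in controls) and Fech (5.61 ± 1.32 and 6.19 ± 0.489; SD, n = 4 each). In controls the order went on with Abcb10, Ppox, Alas2, Cpox, Alad and Uros, and only Alas1 was set apart from its neighbour by more than their SDs. In knockouts Abcb10 (4.27 ± 0.481 CPM per kb) stood after Ppox, Alas2 and Cpox. A gap wider than the SDs separated it from Uros (2.63 ± 0.242) and Alad (2.58 ± 0.317). The 3 protein-coding genes with the profile most like that of Alas1 over the 8 libraries were Gmps, a GMP synthase, Mpc2, a subunit of the mitochondrial pyruvate carrier, and Rassf3. Their root mean square differences from Alas1 were 0.03, 0.03 and 0.04 log2 units, among 12575 candidates. For Alas2 they were Idh2, the mitochondrial isocitrate dehydrogenase, Rgs17 and Igfbp3, at 0.33, 0.34 and 0.35 log2 units. No gene came as close to Alas2 as those to Alas1, but this measure grows with the spread of the gene itself. That spread was larger for Alas2 (coefficient of variation 77.3% in knockouts, against 6.51% for Alas1).

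All 4 genes of heme breakdown rose, as did 26.1% of all genes tested, with a median log2 fold change of 0.71, against -0.01 over all genes. Hmox1, the inducible heme oxygenase, had 9.86, 27.5, 21.1 and 21.5 CPM in knockouts against 1.48, 1.47, 1.88 and 0.947 CPM in controls. Its rise was 14.0-fold (adjusted p = 2.05e-07 by edgeR; log2 fold change 3.80, SE 0.30), with knockout replicate 1 the lowest of the knockouts but above every control. Hmox2, the constitutive oxygenase, rose 1.61-fold (0.69, SE 0.08) and Blvra, for a biliverdin reductase, 1.65-fold (0.72, SE 0.16). Blvrb, for another, passed narrowly (0.42, adjusted p = 0.0406 by edgeR), its groups overlapped, and the call was lost without knockout replicate 2 or 4 or without control replicate 1, 3 or 4 (adjusted p up to 0.126 by edgeR) and in DESeq2. With library totals these 4 genes were called higher as well, and so were 8 of the 9 heme synthesis genes. The 2 lists thus differed in sign on the TMM scale alone. With library totals the 4 genes stood at 1.41 (Blvrb) to 4.85 (Hmox1), above the median of all genes at 0.97. The 9 heme synthesis genes stood at 0.23 (Alad) to 0.96 (Cpox), below that median.

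Of 10 genes that bring precursors and iron to the pathway or act on it in mitochondria, 4 rose and 3 fell (median -0.14). Slc25a38, the carrier that imports glycine for the synthases, fell to 4.07 ± 0.673 CPM in knockouts, against 7.30 ± 0.483 CPM in controls (SD, n = 4 each; log2 fold change -0.85, adjusted p = 8.15e-05 by edgeR; 0.12 with library totals). Abcb8, for a transporter of the inner membrane, fell too (-0.81, SE 0.09), but with library totals it stood at 0.17. Shmt2, a mitochondrial serine hydroxymethyltransferase that yields glycine (2.06, SE 0.15), Slc25a39 (1.55, SE 0.08) and Clpx, a subunit of a protease that acts on ALAS (0.73, SE 0.08), rose under both scalings. Of 14 tested genes of iron-sulfur cluster assembly, which FECH and the iron sensors depend on, 5 rose and 5 fell (median -0.04; 3 fell with no filter on low counts). Hspa9 (1.18) and Fdxr (1.35) rose, while Bola3 (-0.73) and Ndufab1 (-0.59) fell, and these 2 were at 0.26 and 0.39 with library totals. Of the genes that turn heme into heme a and join it to cytochrome c, Cox10 rose (0.35, SE 0.08), Hccs fell (-0.41, SE 0.08, but 0.58 with library totals) and Cox15 stood at -0.07.

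**Figure D4:**
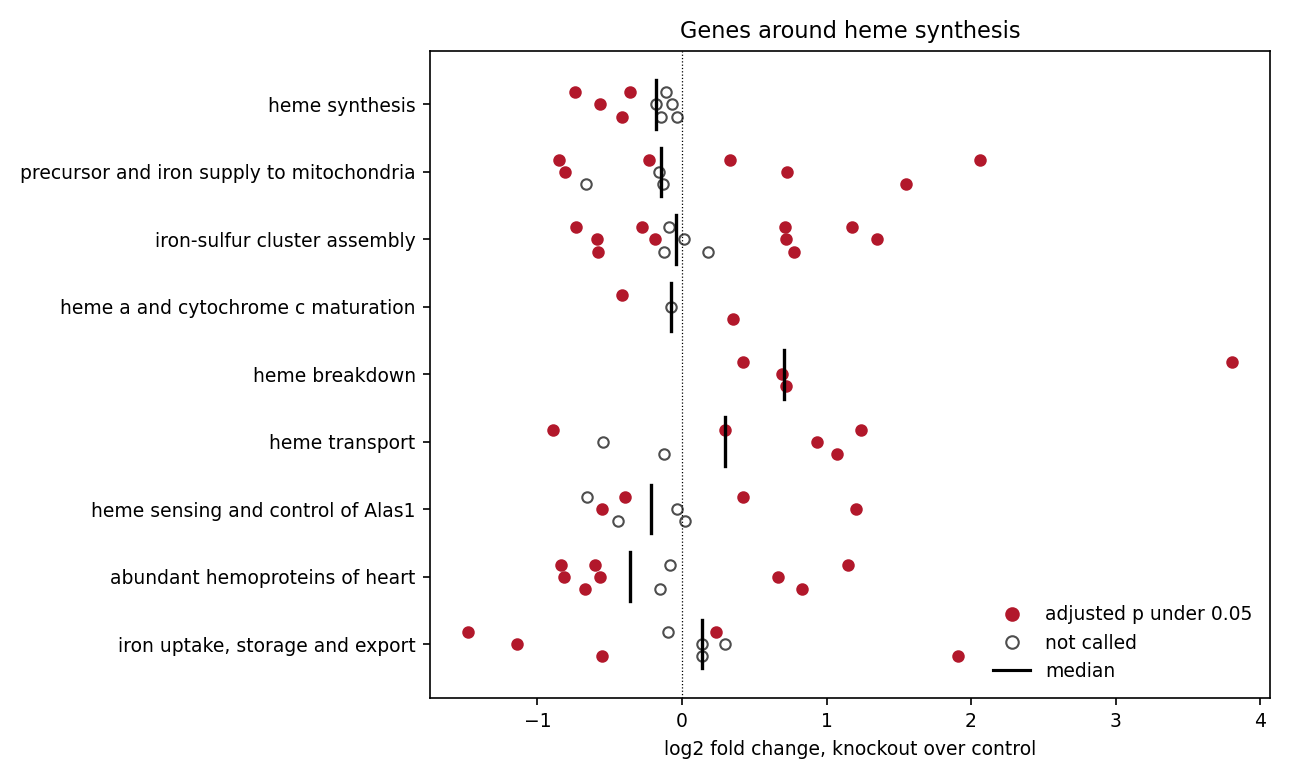
Log2 fold change, knockout over control, of the tested genes of heme synthesis and of 8 related lists. Points are genes, filled red where the adjusted p is under 0.05, and the black bar is the median of the list. The 4 genes of heme breakdown all rose, led by Hmox1 at 3.80, and none of the 9 heme synthesis genes did on this TMM scale, though their values turn positive with library totals.

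Among 7 genes of heme transport 4 rose and 1 fell (median 0.30). The heme-binding Pgrmc2 (1.24, SE 0.09) and Pgrmc1 (1.08, SE 0.11) and the exporter Abcg2 (0.93, SE 0.15) led the rises. The member that fell, Flvcr2 (named Mfsd7c in the files; -0.89, adjusted p = 0.0152 by edgeR; 0.05 with library totals), lost its call without control replicate 3. Of 8 genes that sense heme or control Alas1, 2 rose and 2 fell (median -0.21). The number that fell was 4 without knockout replicate 1 or control replicate 4, with Nr1d1 and Nr1d2 added, for heme-binding nuclear receptors (-0.66 and -0.44 over all libraries, not called; 0.29 and 0.50 with library totals), and 1 without knockout replicate 4 or control replicate 1. Eif2ak1, for the heme-regulated eIF2 alpha kinase, rose (0.42, SE 0.08, adjusted p = 0.00076 by edgeR), as did the heme-binding Hebp1 (1.21, SE 0.15). Foxo1 (-0.56, SE 0.08) and the coactivator gene Ppargc1a (-0.39, SE 0.14), which are known to raise Alas1 in liver, fell, but both were above 0 with library totals (0.43 and 0.57). Ppargc1a lost its call without knockout replicate 4 or control replicate 1 or 3, and without knockout replicate 2 its value was -0.25.

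Genes of proteins that carry heme moved both ways, with 3 that rose and 5 that fell among 10 tested (median -0.36). Mb, the myoglobin gene, had 1838 ± 451 CPM in knockouts and 3241 ± 185 CPM in controls (SD, n = 4 each; log2 fold change -0.82, adjusted p = 0.000433 by edgeR; 0.13 with library totals). Cat, the catalase gene (1.15, SE 0.07), Cygb, for cytoglobin (0.83, SE 0.10), and Cyb5b, for a cytochrome b5 of the outer membrane (0.66, SE 0.08), rose. Suox, for sulfite oxidase (-0.84, SE 0.10), and the cytochrome c gene Cycs (-0.60, SE 0.08) fell, with 0.17 and 0.39 for these 2 under library totals. Sqrdl, which also fell (-0.67; 0.31 with library totals), encodes a flavoprotein and is not a usual hemoprotein. Of 9 tested iron genes 2 rose and 3 fell (median 0.14). Tfrc, the transferrin receptor gene, fell to 60.6, 45.8, 41.4 and 45.1 CPM in knockouts, against 100.7, 104.0, 105.6 and 115.7 CPM in controls (-1.14, SE 0.11, adjusted p = 9.09e-07 by edgeR). Steap3, for a ferrireductase of iron uptake, fell as well (-1.48, SE 0.10), and with library totals these 2 genes stayed below 0, at -0.48 for Steap3 and -0.18 for Tfrc (not called). The change of Slc40a1, for the iron exporter ferroportin, was -0.56 (SE 0.13, adjusted p = 0.0025 by edgeR; 0.46 with library totals). The ferritin genes Ftl1 (1.91, SE 0.17) and Fth1 (0.24, SE 0.07) rose, but both have processed copies that can share their reads, and the call of Fth1 was lost without control replicate 1 or 3.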

How the data were processed

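Raw counts per gene, deposited for 8 libraries (4 per group), were made by the authors with tools the submitters' processing notes name (featureCounts, DESeq2 1.14.1, R 3.3.2, Bowtie2, SAMtools 1.3.1 and bedtools, on mm10; their roles and order are not stated). RNA was extracted with a miRNeasy kit, built into TruSeq libraries and sequenced in pairs on a MiSeq, per the labels' protocols, and the sources used here do not say whether strand was kept or rRNA removed. The deposited normalized signal equals the count times 1 constant per library (largest relative deviation 7.08e-11) and was used for that check alone. The authors' deposited table holds a mean signal, log2 fold changes, a score as test statistic and p-values. It was used for gene names and gene types, and the direction of its fold changes was checked against the counts.

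Counts were tested with edgeR 4.0.16 in R 4.3.3 (quasi-likelihood F test, TMM, filterByExpr with a minimum count of 10, two-sided, Benjamini-Hochberg over 17891 genes), on the whole table, with genotype as the term; the SE was obtained by dividing each fold change (log2) by the square root of its F. On simulated counts for this comparison (17719 genes tested) it recovered 58% of 50 genes changed 1.5-fold and 86% of 50 changed 2-fold, with 4 false calls among 175. The simulation gave all genes and libraries the same dispersion (biological coefficient of variation 11.3%) and changed few genes. It lacked the larger spread of knockout replicate 1 and the 50.0% of genes called in the real data, so these rates need not hold there. Ratios of raw counts had 0.5 added. Transcript lengths are those of the longest principal transcript of GENCODE M21 (GRCm38), which also gave the gene positions, and whose IDs match those of the files except in version for Alas1, Cpox and Fech. Promoters are from RefSeq (GRCm38.p6), matched by symbol. No replicates were merged, as the chi-square between 2 of a group was 2.56 to 139.9 times its degrees of freedom. Same-numbered libraries did not deviate together over all tested genes (correlations -0.006 to 0.0798).

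The members, lists and motifs were chosen with earlier results of these data known. Of 121 listed genes 120 were found, 3 under older symbols. Named genes are all members, Hmox1 and, from each related list, up to 3 called genes by smallest p and those called against the others. Lists of up to 4 genes are named in full, as are the 3 profiles closest to Alas1 and to Alas2. Some further listed genes (Slc40a1, Ppargc1a, Nrf1, Nr1d1, Nr1d2, Ndufab1, Cycs, Mb, Sqrdl) were named after their values were seen. So were the globins, the red cell genes and the markers of other cell types. Some genes that the lists count are not reported here by name. Alternatives were DESeq2 1.42.0, RLE factors, library totals, no filter, a replicate block, nuclear genes alone and each library left out, plus a globin term added after the data were seen. Figures were drawn with matplotlib 3.10.9.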

Additional observations from a re-analysis of the deposited data

Results flagged for a closer look

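In 26 groups of 4 libraries examined (each of the 9 heme synthesis genes, the 3 ratios and the mtDNA share, in each group), 4 held a library set apart, where the gap to its nearest neighbour over the range of its group exceeded Dixon's 95% critical value. Chance gives this in about 1 of 20 groups. Alas1 in knockout replicate 2 was at 41.0 CPM, against 46.8 to 46.9 CPM in the other knockouts (gap over range 0.985). Urod in knockout replicate 1 was at 10.9 CPM, against 8.89 to 9.20 CPM (0.842), and Ppox in knockout replicate 2 at 10.4 CPM, against 9.15 to 9.30 CPM (0.88). Uros in control replicate 3 was at 7.80 CPM, against 6.48 to 6.59 CPM in the other controls (0.918). Alas2 and Fech in knockout replicate 1, although the highest of all libraries, did not reach this limit.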

How the results depend on the processing

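With library totals as the only scaling all 9 values turned positive: Alas1 0.63, Alas2 0.76, Alad 0.23 (not called), Uros 0.41, Urod 0.80, Cpox 0.96, Ppox 0.93, Fech 0.81 and Abcb10 0.56, 8 of them called higher and 0 lower. The same scaling moved the median of all genes to 0.97, with 14066 genes higher and 480 lower (96.7% of calls higher, against 52.2%), and gave 52 higher and 1 lower among the related lists. Without knockout replicate 1, 7 heme synthesis genes fell, with Alas2 at -0.76, Urod at -0.25 and Fech at -0.32 added. With the globin level in the model, 5 fell, with Fech at -0.18 added. RLE factors, nuclear genes alone, DESeq2, no filter, the replicate block and leaving out any other library changed no call among the 9 genes. With each library left out in turn, Alas2 ran from -0.76 to 0.15, Urod from -0.25 to -0.11, Fech from -0.32 to -0.068, and the number of heme synthesis genes that fell from 4 to 7. The replicate block gave Alas1 -0.36, Alas2 -0.30 and Fech -0.16, with 4 of the 9 genes lower. Among the 8 heme sensing genes 4 were then lower, against 2 without it, with Nr1d1 and Nr1d2 added. In both groups Nr1d1 was higher in replicates 1 and 2 than in 3 and 4. It had 19.6, 17.2, 11.0 and 9.23 CPM in knockouts and 28.4, 33.3, 14.7 and 13.1 CPM in controls. Nr1d2 was also higher in replicates 1 and 2 of both groups. Replicate numbers in the labels are shared by the groups. Over all tested genes same-numbered libraries correlated at most 0.0798, and only 1 of 4 knockouts correlated best with its own number. With each library left out, the ratio differences ran from -0.28 to -0.059 (Alas1 to Fech), -0.27 to -0.13 (Alas1 to Urod) and -0.53 to -0.16 (Alas2 to globins). Their p-values could not pass in any of these smaller designs, whatever the values, and say nothing of stability. Depth limits Alad and Uros most, with 88 to 153 counts per library.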
